A study of Mus musculus with 8 samples.

Results

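The cytochromes P450 of families 1 to 3, the heme enzymes that carry most oxidation of drugs, steroids and other foreign compounds in the liver, were followed in mouse liver after alcohol. Every gene symbol of these families in the deposited table was taken, except Cyp2e1, which gave 52 members of 21049 listed genes. The members fell into the subfamilies 1a (2 genes), 2a (4), 2b (3), 2c (15), 2d (8), 2j (5) and 3a (8), with 1 gene each in 1b, 2f, 2g, 2r, 2s, 2t and 2u. RNA was sequenced from 4 alcohol samples (mice fed alcohol) and 4 control samples (mice given saline), all labelled as wild-type (WT) liver and compared in a C57BL/6 design, an inbred strain. The labels do not state age, sex, dose or length of feeding. The labels add AML12, a mouse hepatocyte line, and do not tie samples to separate animals, so p-values here reflect only the spread among these samples.

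A P450 binds a substrate at its heme iron and takes electrons from NADPH through the reductase Por. In liver, transcription of these genes is set by receptors that sense foreign compounds, chiefly CAR (Nr1i3) and PXR (Nr1i2) for families 2 and 3 and the aryl hydrocarbon receptor (Ahr) for family 1, and in mice also by sex-dependent growth hormone release. Most of the genes lie in tandem clusters of close copies, so reads can be shared between neighbours.

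Library totals were 37132631 to 38407511 reads in alcohol samples and 33872595 to 34789814 reads in control samples. Alcohol replicates 2 and 4 stood closest of all pairs within a group: their chi-square per gene was 7.63, and that of the next pair was 38.7. The hepatocyte protein albumin (Alb) stood at 40292 ± 4354 FPKM in alcohol samples and 36840 ± 1362 FPKM in control samples (SD, n = 4 each), where FPKM is fragments scaled to gene length and library total. Transcripts of other liver cells were present, among them the Kupffer cell lectin Clec4f at 7.50 ± 1.75 FPKM in alcohol samples and 10.6 ± 5.09 FPKM in control samples. All 8 of 8 endothelial markers were called higher with alcohol, where 44.2% of all tested genes were, and 6 of 8 were with quantile normalization. Their summed level was 64.6 to 78.9 FPKM in alcohol samples and 15.7 to 25.4 FPKM in control samples, and the part of this shift in the results below was not tested. The Y-linked transcript Ddx3y was present in all 8 libraries and Xist was at most 0.00601 FPKM, so no library looked female.

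The members moved in both directions, and the largest rise of any tested gene was theirs. Of the 52 members, 33 reached a mean of 1 FPKM over the 8 samples and were tested by limma on log2(FPKM + 1). With alcohol 15 were higher and 6 lower at an adjusted p under 0.05, and 12 did not pass, where 44.2% of all 9228 tested genes were higher and 13.0% lower. The shares of members called were thus close to those over all genes. At a change of at least 1 on the log2 scale, 10 of the 33 members were called higher and 2 lower, where 7.07% and 2.11% of all tested genes were called at that size. The median log2 change was 0.33 over the tested members and 0.24 over all tested genes. The groups did not overlap for 19 of the 33 members, beside 50.2% of all tested genes. Of the tested members 5 had a control mean under 1 FPKM and 1 an alcohol mean under 1 FPKM, so those 6 passed the minimum only through the group in which they were high. The 5 were Cyp2b10, Cyp2b9, Cyp2a22, Cyp2a4 and Cyp2c55. All of them were among the 10 called higher at a log2 change of at least 1, so that count is no support. The largest rise, that of Cyp2b10, was among them too. The member with the low alcohol mean was Cyp2c69. In whole tissue, fewer cells of a type and less RNA per cell cannot be told apart.

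**Figure D1:**
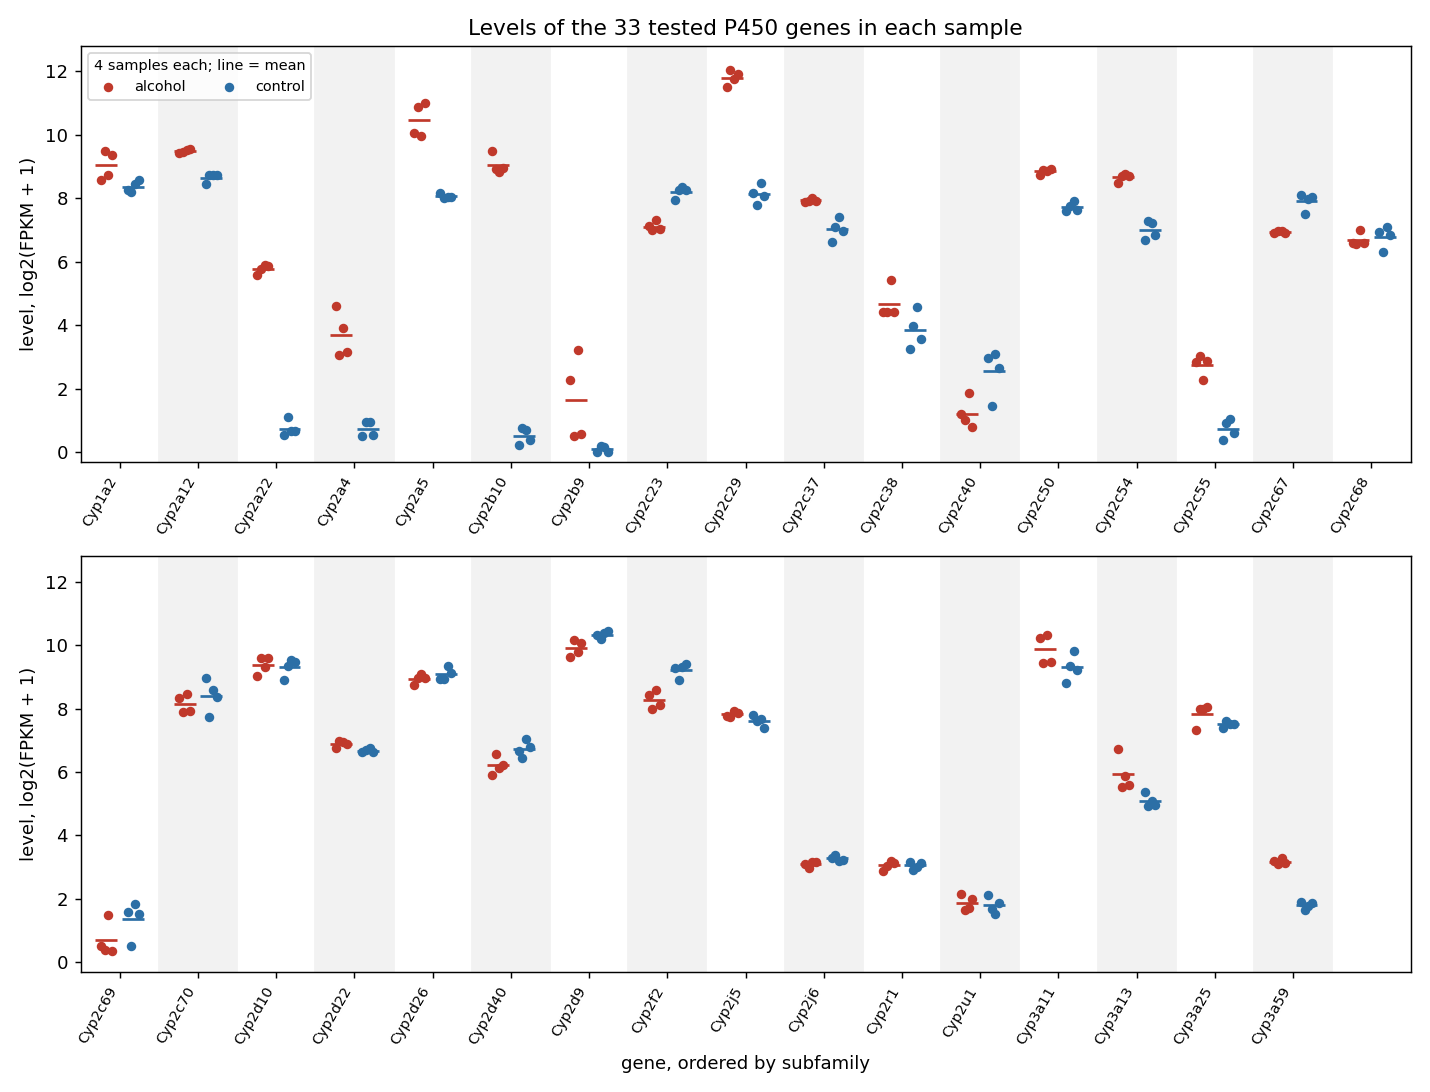
Level of each of the 33 tested members on the log2(FPKM + 1) scale, with a point for each of the 4 alcohol samples (red, left) and 4 control samples (blue, right) and a line at the mean. Cyp2b10, Cyp2a22, Cyp2a4 and Cyp2c55 lie below 1.2 FPKM in every control sample and well above it in every alcohol sample, and Cyp2c29 is the highest member in the alcohol samples.

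The order of abundance changed with the group. In alcohol samples Cyp2c29 was the most abundant member, followed by Cyp2a5, Cyp3a11, Cyp2d9 and Cyp2a12. In control samples the first 5 were Cyp2d9, Cyp3a11, Cyp2d10, Cyp2f2 and Cyp2d26, and Cyp2c29 was number 10 and Cyp2b10 number 37. The members together took 2.20%, 2.59%, 2.38% and 2.56% of the reads of alcohol replicates 1 to 4, and 1.27%, 1.25%, 1.51% and 1.38% of the reads of control replicates 1 to 4. Their summed level was 12933 ± 1122 FPKM in alcohol samples and 7153 ± 655 FPKM in control samples (SD, n = 4 each), a ratio of 1.81 with no overlap. Cyp2c29 alone was 27.9% of that sum in alcohol samples and 3.95% in control samples. Leaving out Cyp2c29 gave a ratio of 1.36, which became 1.10 once libraries were rescaled by median of ratios, a method that centres the bulk of genes.

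**Figure D2:**
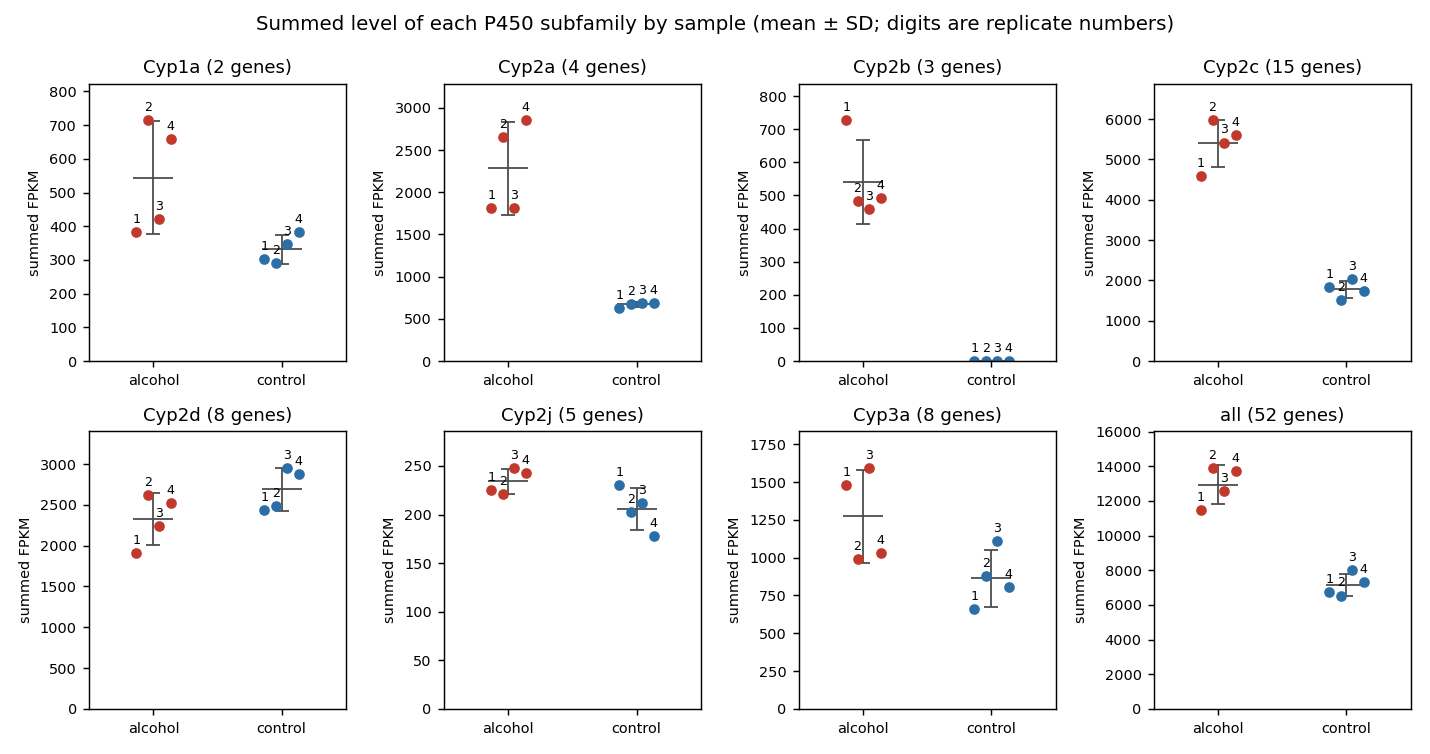
Summed FPKM of each subfamily in every sample, alcohol left of control, with the mean ± SD of 4 samples and the replicate number beside each point (axes start at 0). The 2a, 2b and 2c sums and the sum of all 52 members do not overlap between groups, while those of 1a, 2d, 2j and 3a do.

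Of family 1, the targets of the aryl hydrocarbon receptor, only Cyp1a2 was abundant enough to be tested, and it was called higher. Cyp1a2, the main liver member and the enzyme that oxidizes caffeine, had 383, 715, 420 and 658 FPKM in alcohol replicates 1 to 4, against 302, 290, 348 and 383 FPKM in control replicates 1 to 4. Alcohol replicates 2 and 4 were high, and alcohol replicate 1 lay just under the highest control. On the log2 scale the difference was 0.67 ± 0.21 (SE, limma adjusted p = 0.0174). That call was lost with median-of-ratios scaling (0.37, adjusted p = 0.185), when every gene was fitted (adjusted p = 0.0559) and when alcohol replicate 4 was left out (adjusted p = 0.0502).

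Cyp1a1, the gene most used as a readout of that receptor, stayed under the minimum for testing in every sample. Its level was 0.375, 0.599, 0.738 and 0.444 FPKM in alcohol replicates 1 to 4, against 0.144, 0.251, 0.134 and 0.180 FPKM in control replicates 1 to 4. Every alcohol sample lay above every control, on 40 to 79 recovered reads per alcohol library and 13 to 24 per control library. Cyp1b1, which acts mainly outside the liver, stood at 0.396 ± 0.0479 FPKM in alcohol samples and 0.123 ± 0.0571 FPKM in control samples (SD, n = 4 each), also without overlap. When all 21049 genes were fitted without a minimum, Cyp1a1 (limma adjusted p = 0.00693) and Cyp1b1 (adjusted p = 0.00142) both passed as higher.

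Subfamily 2b held the largest rise of the 9228 tested genes. Cyp2b10, the classic target of CAR and the mouse gene most used to read phenobarbital-type induction, had 724, 483, 450 and 491 FPKM in alcohol replicates 1 to 4. In control replicates 1 to 4 it had 0.168, 0.682, 0.614 and 0.299 FPKM, on 11 to 44 recovered reads. The gene was thus near silent in all 4 controls and among the 10 most abundant members in alcohol samples. Limma put the log2 change at 8.54 ± 0.17 (SE, adjusted p = 3.75e-10), and the ratio of mean FPKM was 1219. Cyp2b10 passed the minimum for testing only through the alcohol group.

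Cyp2b9 and Cyp2b13, which in mice are expressed mainly in females, remained far lower. Cyp2b9 had 3.88, 0.427, 8.32 and 0.479 FPKM in alcohol replicates 1 to 4, against 0, 0.154, 0.111 and 0 FPKM in control replicates 1 to 4. The alcohol samples split, with replicates 1 and 3 high and replicates 2 and 4 low, yet each was above every control. The fitted log2 change came to 1.56 ± 0.51 (SE, limma adjusted p = 0.0221), and the call was lost when every gene was fitted (adjusted p = 0.0857) and when alcohol replicate 1 (1.34, adjusted p = 0.0579) or control replicate 4 (adjusted p = 0.051) was left out. Without alcohol replicate 3 the log2 change was 1.03, and the largest value, without alcohol replicate 2, was 1.93. Cyp2b13 had 0.146, 0.113, 0.0726 and 0.050 FPKM in alcohol replicates 1 to 4, on 4 to 12 reads per library, against 0, 0, 0.0134 and 0 FPKM in control replicates 1 to 4, on 1 read in all. It was above every control in each alcohol sample and too low to be tested. The 2b sum was 541 ± 126 FPKM in alcohol samples and 0.510 ± 0.327 FPKM in control samples (SD, n = 4 each), and Cyp2b10 made up 99.4% of it in alcohol samples and 86.4% in control samples.

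The 250 bases before the start of Cyp2b10 and Cyp2b9 are shown because these neighbours on chromosome 7 differ so much in level (RefSeq, GRCm38.p6). Cyp2b10 is read from chr7:25897408-25897657 and Cyp2b9 from chr7:26173159-26173408, both on the plus strand. Capitals mark, on either strand, 5 short motifs: GCGTG (the core bound by the aryl hydrocarbon receptor), AGGTCA and AGTTCA (half-sites of nuclear receptors), TATAAA (the TATA box) and CAAAGT (the core bound by HNF4A).
Cyp2b10: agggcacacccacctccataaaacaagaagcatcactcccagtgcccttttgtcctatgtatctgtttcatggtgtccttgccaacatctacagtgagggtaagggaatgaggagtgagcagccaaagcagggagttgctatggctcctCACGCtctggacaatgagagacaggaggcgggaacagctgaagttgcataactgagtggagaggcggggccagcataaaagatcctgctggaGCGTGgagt
Cyp2b9: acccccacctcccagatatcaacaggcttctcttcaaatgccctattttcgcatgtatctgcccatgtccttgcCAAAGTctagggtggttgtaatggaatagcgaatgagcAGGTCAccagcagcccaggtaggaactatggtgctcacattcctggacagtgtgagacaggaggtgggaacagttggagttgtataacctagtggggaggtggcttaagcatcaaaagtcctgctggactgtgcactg
The windows were 71.6% identical. Cyp2b10 held GCGTG at 2 places and no AGGTCA or AGTTCA, while Cyp2b9 held 1 AGGTCA and 1 CAAAGT. The window of Cyp2b9 was 99.2% identical to that of Cyp2b13.

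All 4 members of subfamily 2a were higher with alcohol, where 44.2% of all tested genes were. Cyp2a22 and Cyp2a4 among them passed the minimum only through the alcohol group. Cyp2a5, the coumarin hydroxylase of mouse liver, was the most abundant, with 1065, 1890, 1004 and 2042 FPKM in alcohol replicates 1 to 4, against 287, 255, 263 and 265 FPKM in control replicates 1 to 4. The control samples were close together, and alcohol replicates 2 and 4 were well above replicates 1 and 3. In log2 units it differed by 2.41 ± 0.23 (SE, limma adjusted p = 1.71e-05).

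Cyp2a22 had the largest rise of the subfamily and ranked number 4 of all tested genes. It had 47.2, 54.1, 58.5 and 56.8 FPKM in alcohol replicates 1 to 4, against 0.454, 1.14, 0.591 and 0.580 FPKM in control replicates 1 to 4. The 4 alcohol samples varied little, and none came near a control. On the log2 scale the difference was 5.04 ± 0.13 (SE, limma adjusted p = 3.52e-09). Its close copy Cyp2a12, a steroid hydroxylase, was already abundant in controls and rose less, with 683, 699, 735 and 751 FPKM in alcohol replicates 1 to 4, against 345, 420, 425 and 421 FPKM in control replicates 1 to 4. That change was 0.83 ± 0.12 (SE) on the log2 scale, with a limma adjusted p of 0.000208.

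The coding sequences of Cyp2a22 and Cyp2a12 were 96.95% identical, and 25.7% of the 50-base windows of Cyp2a22 occurred in another transcript. Cyp2a22 took 8.85% to 10.1% of the reads of the pair in alcohol samples and 0.185% to 0.381% in control samples. The share thus differed between groups. The 2 transcripts differ in length, so the division of reads touches their summed FPKM a little, and the alcohol to control ratio was 1.91 for that sum and 1.96 for the summed reads. The sum of the pair was 771 ± 36.2 FPKM in alcohol samples and 403 ± 38.8 FPKM in control samples (SD, n = 4 each).

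The windows before both starts are shown because these near-copies differed in the size of their change. They come from RefSeq on GRCm38.p6, Cyp2a22 from chr7:26939387-26939636 on the minus strand and Cyp2a12 from chr7:27028840-27029089 on the plus strand. Capitals mark the bases that differ or have no partner when the windows are aligned end to end.
Cyp2a22: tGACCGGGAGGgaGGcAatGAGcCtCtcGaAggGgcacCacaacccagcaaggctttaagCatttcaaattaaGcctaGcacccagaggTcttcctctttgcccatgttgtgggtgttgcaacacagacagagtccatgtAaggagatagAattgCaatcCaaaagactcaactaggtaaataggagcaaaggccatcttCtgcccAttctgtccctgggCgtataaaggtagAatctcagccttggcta
Cyp2a12: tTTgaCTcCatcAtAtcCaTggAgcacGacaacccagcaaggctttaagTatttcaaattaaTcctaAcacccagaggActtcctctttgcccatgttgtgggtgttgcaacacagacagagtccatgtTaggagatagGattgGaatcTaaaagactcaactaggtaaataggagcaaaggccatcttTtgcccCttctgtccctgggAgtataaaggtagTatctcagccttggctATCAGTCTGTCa
The windows were 86.4% identical, 34 bases of each are in capitals, and each held TATAAA once and none of the other 4 motifs.

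Cyp2a4, a steroid hydroxylase that is higher in female mice, had 23.5, 7.36, 13.9 and 7.98 FPKM in alcohol replicates 1 to 4, against 0.419, 0.934, 0.941 and 0.448 FPKM in control replicates 1 to 4. Alcohol replicates 1 and 3 were the higher ones, the reverse of Cyp2a5. Limma put the log2 change at 2.95 ± 0.30 (SE, adjusted p = 2.55e-05). Cyp2a4 and Cyp2a5 were 98.45% identical over 1482 coding bases, with 23 differing bases and 1 identical run of 216 bases, so reads of this pair are uncertain one by one. Cyp2a4 took 2.16%, 0.388%, 1.37% and 0.389% of the reads of the pair in alcohol replicates 1 to 4, and 0.146% to 0.366% in control samples. The share of alcohol replicates 2 and 4 thus lay just above the control range. The sum of the pair was 1513 ± 536 FPKM in alcohol samples and 268 ± 13.8 FPKM in control samples (SD, n = 4 each).

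Coding bases 580 to 669 show what can tell the pair apart. They come from GENCODE M21 transcripts, and capitals mark the 5 bases of the stretch that differ.
Cyp2a4: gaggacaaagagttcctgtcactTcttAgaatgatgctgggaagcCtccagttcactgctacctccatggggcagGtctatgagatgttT
Cyp2a5: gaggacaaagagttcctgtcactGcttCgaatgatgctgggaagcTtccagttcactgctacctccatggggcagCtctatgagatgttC
This stretch was picked for holding the most differing bases, so it is not typical of the pair. Elsewhere, as in the identical run of 216 bases, a read of 50 bases that falls between differing bases matches both genes. Such shared windows made up 38.01% of the Cyp2a4 transcript and 40.84% of the Cyp2a5 transcript. With windows of 100 bases the shares were 11.17% and 14.37%.

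Subfamily 2c, the largest group and a source of epoxides of arachidonic acid, moved in both directions, with 6 of 12 tested members higher and 3 lower, beside 44.2% and 13.0% of all tested genes. Cyp2c29, an epoxygenase that phenobarbital induces in mice, had 2885, 4243, 3452 and 3860 FPKM in alcohol replicates 1 to 4, against 288, 221, 352 and 268 FPKM in control replicates 1 to 4. Every alcohol sample held far more than any control. The fitted log2 change came to 3.68 ± 0.17 (SE, limma adjusted p = 2.97e-07), and only 2.08% of its 50-base windows occurred in another transcript.

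Cyp2c55, an enzyme known in mice for oxidizing arachidonic acid in the colon, had 6.10, 7.19, 3.87 and 6.24 FPKM in alcohol replicates 1 to 4, against 0.291, 0.872, 1.04 and 0.527 FPKM in control replicates 1 to 4. It was low in all samples but without overlap, with a log2 change of 2.02 ± 0.18 (SE, limma adjusted p = 1.24e-05). The neighbours Cyp2c37, Cyp2c50 and Cyp2c54 had log2 changes of 0.91, 1.12 and 1.66, and their summed level was 1108 ± 65.5 FPKM in alcohol samples and 471 ± 72.0 FPKM in control samples (SD, n = 4 each). Cyp2c38 also passed, with 20.3, 20.1, 42.1 and 20.5 FPKM in alcohol replicates 1 to 4, against 8.43, 14.6, 22.9 and 10.8 FPKM in control replicates 1 to 4. The groups overlapped, alcohol replicate 3 stood apart, and the call (log2 change 0.83, limma adjusted p = 0.0337) was lost in 7 of 18 alternatives, among them leaving out alcohol replicate 3 (adjusted p = 0.0853) or control replicate 1 (0.0916), 2 (0.052) or 4 (0.0887).

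The members of 2c that fell were Cyp2c40, Cyp2c23 and Cyp2c67. Cyp2c40, which makes hydroxy fatty acids, had 1.28, 1.03, 2.60 and 0.733 FPKM in alcohol replicates 1 to 4, against 6.83, 1.71, 7.57 and 5.29 FPKM in control replicates 1 to 4. Control replicate 2 was low and lay inside the alcohol range. In log2 units it differed by -1.33 ± 0.34 (SE, limma adjusted p = 0.00675). Cyp2c23, an arachidonic acid epoxygenase that lies outside the cluster, had 138, 126, 157 and 128 FPKM in alcohol replicates 1 to 4, against 246, 304, 329 and 308 FPKM in control replicates 1 to 4. No 50-base window of it occurred in another transcript, the groups did not overlap, and the log2 difference came to -1.10 ± 0.13 (SE, limma adjusted p = 5.58e-05).

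Cyp2c67 had 119, 124, 124 and 119 FPKM in alcohol replicates 1 to 4, against 275, 180, 250 and 261 FPKM in control replicates 1 to 4. The alcohol samples were almost level and all below every control, with a log2 change of -0.97 ± 0.14 (SE, limma adjusted p = 0.000226). Cyp2c40, Cyp2c67, Cyp2c68 and Cyp2c69 are close copies side by side, and 72.1% of the 50-base windows of Cyp2c40 occurred in another transcript. Summed, these 4 stood at 226 ± 18.98 FPKM in alcohol samples and 360 ± 67.8 FPKM in control samples (SD, n = 4 each), a ratio of 0.63 with no overlap.

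Cyp2c70, which makes the muricholic acids that set mouse bile apart, shared no 50-base window and did not pass. It had 318, 238, 353 and 241 FPKM in alcohol replicates 1 to 4, against 501, 212, 380 and 326 FPKM in control replicates 1 to 4, and the groups overlapped (log2 change -0.26 ± 0.24, limma adjusted p = 0.376). Cyp2c68 and Cyp2c69 did not pass either, with log2 changes of -0.10 and -0.68, though Cyp2c69 passed as lower without alcohol replicate 3 (adjusted p = 0.0124) or control replicate 2 (0.0109). Cyp2c69 averaged 0.715 FPKM in alcohol samples and 1.72 FPKM in control samples. It passed the minimum only through the control group, so its direction is no support. Cyp2c39, Cyp2c65 and Cyp2c66 were too low to be tested. The whole 2c sum was 5402 ± 587 FPKM in alcohol samples and 1780 ± 215 FPKM in control samples (SD, n = 4 each), a ratio of 3.03. Leaving out Cyp2c29 gave a ratio of 1.196, which became 0.97 after median-of-ratios scaling.

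The windows before Cyp2c29 and Cyp2c67 are shown as a neighbour that rose and a neighbour that fell. They come from RefSeq on GRCm38.p6, Cyp2c29 from chr19:39286835-39287084 on the plus strand and Cyp2c67 from chr19:39649043-39649292 on the minus strand, with the 5 motifs in capitals as before.
Cyp2c29: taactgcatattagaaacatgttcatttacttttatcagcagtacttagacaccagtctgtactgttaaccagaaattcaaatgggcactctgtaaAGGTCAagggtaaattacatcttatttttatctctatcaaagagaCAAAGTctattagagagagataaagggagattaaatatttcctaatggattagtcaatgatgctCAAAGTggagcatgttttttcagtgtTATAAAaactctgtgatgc
Cyp2c67: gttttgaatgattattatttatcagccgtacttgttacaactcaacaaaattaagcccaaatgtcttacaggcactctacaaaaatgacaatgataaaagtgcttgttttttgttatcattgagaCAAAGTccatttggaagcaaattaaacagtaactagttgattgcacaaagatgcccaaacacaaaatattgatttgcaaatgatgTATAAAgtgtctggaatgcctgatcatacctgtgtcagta
The windows were 59.6% identical. Both held TATAAA and CAAAGT, and Cyp2c29 also held AGGTCA.

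Across the 45 members with a RefSeq window, TATAAA occurred in 24 and CAAAGT in 26, where 12.97% and 12.53% of all 27025 windows of that length held them. AGGTCA occurred in 12 of the 45 members (13.84% of all windows) and AGTTCA in 6 (11.9%). GCGTG was in 5 of the 45 (28.21% of all windows), namely Cyp1a1, Cyp1b1, Cyp2b10, Cyp2c68 and Cyp2j9. Of the 14 members called higher that had a window, 8 held TATAAA, 8 held CAAAGT and 3 held AGGTCA, and of the 5 called lower 3, 2 and 1 did. A match describes the letters of a window and not a bound site.

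Subfamily 2d held abundant enzymes with small changes, and 2 of its 5 tested members were called lower, where 13.0% of all tested genes were. Cyp2d9, a testosterone hydroxylase that is higher in male mice, had 793, 1132, 873 and 1069 FPKM in alcohol replicates 1 to 4, against 1269, 1162, 1334 and 1404 FPKM in control replicates 1 to 4. The groups did not overlap but came close, and the log2 difference came to -0.43 ± 0.15 (SE, limma adjusted p = 0.0289), a call that was lost in 7 of 18 alternatives (adjusted p up to 0.0826), among them leaving out alcohol replicate 1 (0.0738) or 3 (0.0755) or control replicate 3 (0.0695) or 4 (0.0765). Cyp2d40 had 58.97, 94.2, 68.9 and 73.8 FPKM in alcohol replicates 1 to 4, against 99.6, 85.6, 131 and 110 FPKM in control replicates 1 to 4. The groups overlapped through alcohol replicate 2 and control replicate 2, and the log2 difference came to -0.53 ± 0.17 (SE, limma adjusted p = 0.0189), a call that was lost in 4 of 18 alternatives, among them leaving out alcohol replicate 1 (adjusted p = 0.0512) or control replicate 3 (0.0609). Cyp2d10, Cyp2d22 and Cyp2d26 did not pass, with log2 changes of 0.07, 0.21 and -0.15. Cyp2d22 had no overlap between groups, at 107 to 125 FPKM in alcohol samples and 97.2 to 106 FPKM in control samples, and was called higher in 3 of 18 alternatives (when every gene was fitted, adjusted p = 0.0428, with quantile normalization, 0.00583, and on the TPM scale, 0.00795), while with median-of-ratios scaling it stood at -0.0853. The remaining 2d genes, Cyp2d11, Cyp2d12 and Cyp2d34, were too low to be tested. Cyp2d12 stood at 0.288 ± 0.160 FPKM in alcohol samples and 0.593 ± 0.0917 FPKM in control samples (SD, n = 4 each), without overlap. When every gene was fitted, Cyp2d12 was called lower (limma adjusted p = 0.0336). The 2d sum was 2325 ± 319 FPKM in alcohol samples and 2690 ± 267 FPKM in control samples (SD, n = 4 each), with overlap.

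Cyp2f2, which activates naphthalene in mice and marks hepatocytes near the portal vein, fell. It had 343, 252, 386 and 279 FPKM in alcohol replicates 1 to 4, against 618, 478, 630 and 672 FPKM in control replicates 1 to 4. All alcohol samples lay below all controls, and the log2 difference came to -0.93 ± 0.16 (SE, limma adjusted p = 0.0008). It passed in all 18 alternatives and shared no 50-base window with another transcript.

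The 2j subfamily and the single-gene subfamilies 2r and 2u did not pass. Cyp2j5, an epoxygenase abundant in liver and kidney, had 217, 214, 240 and 234 FPKM in alcohol replicates 1 to 4, against 221, 193, 203 and 168 FPKM in control replicates 1 to 4. The groups overlapped, and its log2 change of 0.21 ± 0.12 (SE, limma adjusted p = 0.139) was -0.091 with median-of-ratios scaling. Cyp2r1, the main vitamin D 25-hydroxylase, stood at 7.34 ± 0.760 FPKM in alcohol samples and 7.35 ± 0.695 FPKM in control samples (SD, n = 4 each). Cyp2u1, a fatty acid hydroxylase, had 3.42, 2.17, 2.30 and 3.003 FPKM in alcohol replicates 1 to 4, against 3.37, 2.24, 1.88 and 2.63 FPKM in control replicates 1 to 4. The ranges were nearly the same, with a log2 change of 0.08 ± 0.15 (SE, limma adjusted p = 0.66). The other tested 2j member, Cyp2j6, had a log2 change of -0.17 ± 0.09 (SE, limma adjusted p = 0.132), and median-of-ratios scaling made it a called fall (-0.44, adjusted p = 0.00196). Cyp2g1, Cyp2s1, Cyp2t4, Cyp2j8, Cyp2j9 and Cyp2j11 averaged 1.07 FPKM or less in either group and were not tested.

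In subfamily 3a the abundant member did not pass while lesser members did. Cyp3a11, the main target of PXR in mouse liver, had 1206, 684, 1279 and 711 FPKM in alcohol replicates 1 to 4, against 450, 652, 891 and 591 FPKM in control replicates 1 to 4. Alcohol replicates 1 and 3 lay above all controls, and replicates 2 and 4 lay inside the control range. On the log2 scale the difference was 0.57 ± 0.26 (SE, limma adjusted p = 0.0804). It passed in 5 of 18 alternatives, among them with alcohol replicates 2 and 4 averaged and counted once (0.71, adjusted p = 0.0462) and without alcohol replicate 2 (0.72, 0.0422) or control replicate 3 (0.74, 0.0379), and its adjusted p ranged from 0.034 to 0.436.

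Cyp3a59 and Cyp3a13 were higher. Cyp3a59 had 8.13, 7.56, 8.78 and 7.71 FPKM in alcohol replicates 1 to 4, against 2.72, 2.14, 2.42 and 2.66 FPKM in control replicates 1 to 4. Both groups were tight and far apart, with a log2 change of 1.38 ± 0.10 (SE, limma adjusted p = 2.53e-06). It is 97.48% identical in coding sequence to Cyp3a25, which did not pass (log2 change 0.33 ± 0.16, adjusted p = 0.104, or 0.00429 without alcohol replicate 1), and it took 5.13% to 8.66% of the reads of the pair in alcohol samples and 1.99% to 2.98% in control samples. The sum of this pair overlapped between groups, at 241 ± 48.9 FPKM in alcohol samples and 184 ± 12.3 FPKM in control samples (SD, n = 4 each), a ratio of 1.31, or 1.06 with median-of-ratios scaling. Cyp3a13 had 105, 45.6, 57.2 and 47.4 FPKM in alcohol replicates 1 to 4, against 40.7, 29.7, 33.1 and 29.9 FPKM in control replicates 1 to 4. Alcohol replicate 1 was the highest and no alcohol sample fell within the control range, with a log2 change of 0.84 ± 0.23 (SE, limma adjusted p = 0.0105) that did not pass with median-of-ratios scaling (0.54, adjusted p = 0.0664).

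Cyp3a44, one of the female-specific members in mice, was below the minimum. It had 0.852, 0.343, 0.650 and 0.686 FPKM in alcohol replicates 1 to 4, on 25 to 64 reads, against 0, 0.0297, 0 and 0.0150 FPKM in control replicates 1 to 4, on 3 reads in all. Every alcohol sample was above every control. Cyp3a16 and Cyp3a41b overlapped between groups, and Cyp3a41a had 1 recovered read in each alcohol library and none in the control libraries, where a count of 0 allows up to 3 reads per library (counting error only). The 3a sum was 1275 ± 307 FPKM in alcohol samples and 864 ± 187 FPKM in control samples (SD, n = 4 each), with overlap.

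**Figure D3:**
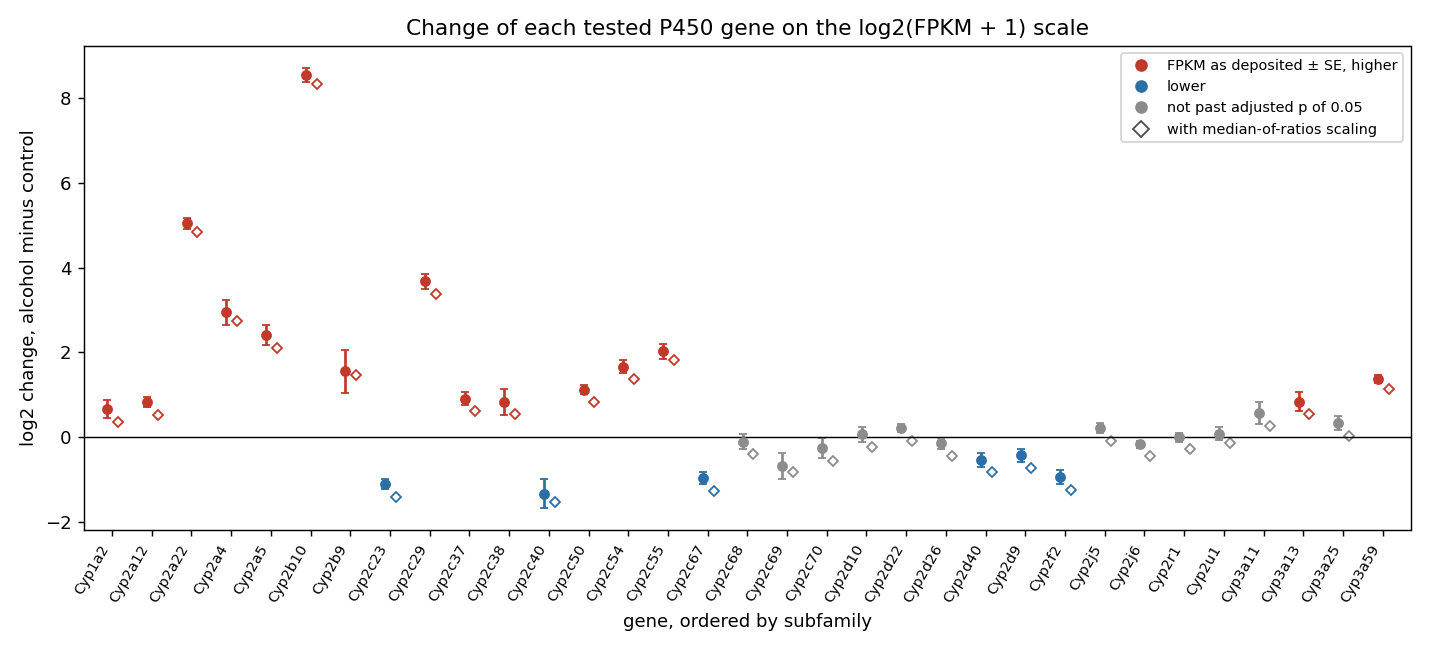
Log2 change (alcohol minus control, on the log2(FPKM + 1) scale) of the 33 tested members, with the SE of the limma fit as bars and open diamonds for the same change after median-of-ratios scaling. Members higher at an adjusted p under 0.05 are red, lower blue and the others grey, and the diamonds lie below the filled points because that scaling lowers the median of all genes to near 0.

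Under median-of-ratios scaling, where the median log2 change of all genes was -0.003, 12 members were higher and 10 lower (25.9% of all genes were higher and 26.5% lower). The same counts from limma-voom on recovered reads were 15 and 6 (44.3% and 12.9% of all genes). The calls of Cyp1a2, Cyp2c38 and Cyp3a13 were lost after median-of-ratios scaling, and Cyp2c69, Cyp2d26, Cyp2j6 and Cyp2r1 were called lower. Of these Cyp2c69 passed the minimum only through the control group. Without a minimum level, 19 of all 52 members were higher and 5 lower (24.2% and 6.39% of 21049 genes), with a median log2 change of 0.09 over the members and 0.02 over all genes.

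Neighbouring members moved in both directions, where 44.2% of all tested genes were higher and 13.0% lower. On chromosome 7, from 25802475 to 27158668 in GENCODE M21 on GRCm38, 11 members of 2a, 2b, 2f, 2g, 2s and 2t lie together, and of 7 tested 6 were higher and Cyp2f2, at the far end, was lower. Of the higher ones Cyp2b10, Cyp2b9, Cyp2a4 and Cyp2a22, and Cyp2c55 in the 2c cluster, had control means under 1 FPKM. They passed the minimum only through the alcohol group, so their direction is no support. On chromosome 19, from 39007019 to 40187333, 14 members of 2c lie together, and of 11 tested 6 were higher and 2 lower. There the lower members, Cyp2c67 and Cyp2c40, lay beside each other's close copies, between Cyp2c29 and Cyp2c38 on one side and Cyp2c37, Cyp2c54 and Cyp2c50 on the other. In the 2d cluster on chromosome 15 none of 5 tested members was higher and 2 were lower, and in the 2j cluster on chromosome 4 neither of 2 tested members passed. All these genes are annotated as protein-coding.

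**Figure D4:**
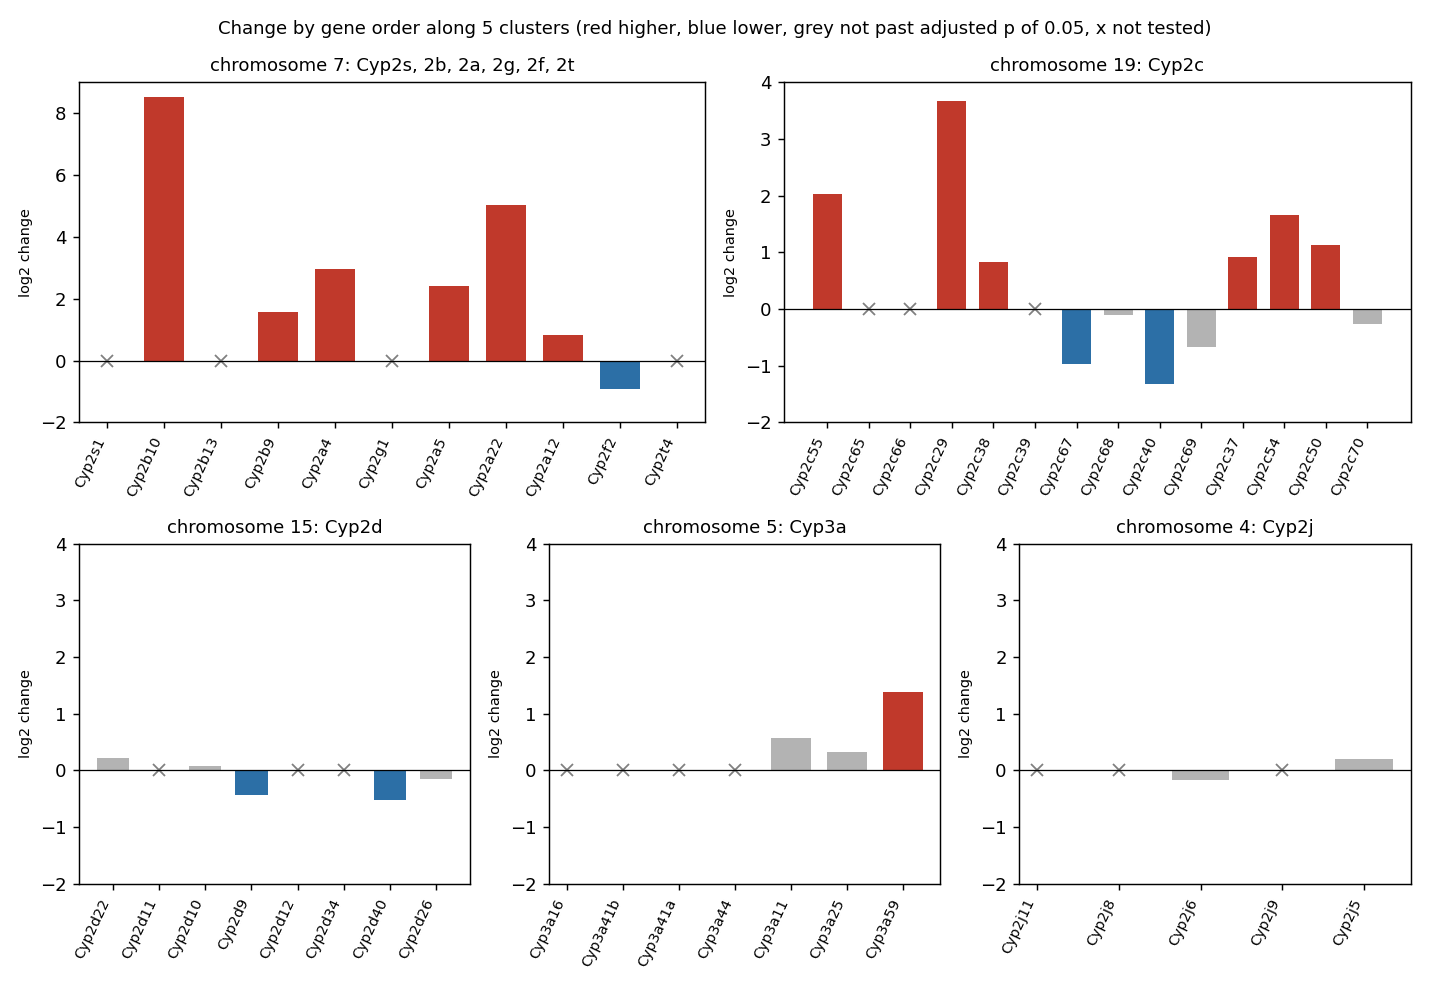
Log2 change of the members in their order along 5 clusters, with genes evenly spaced (red higher, blue lower, grey not past an adjusted p of 0.05, x not tested). The chromosome 7 cluster has a larger axis than the others, and the 2 lower genes of the chromosome 19 cluster lie between groups of higher ones.

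Members known to differ between the sexes were also examined. Of 12 members listed as higher in female mouse liver only 5 were tested, and Cyp2a4, Cyp2b9 and Cyp2b10 were higher, Cyp2c40 was lower and Cyp2c69 did not pass. Those 3 higher members had control means under 1 FPKM and passed the minimum only through the alcohol group, so their direction is no support. When every gene was fitted, Cyp2b13 (limma adjusted p = 0.00784), Cyp2c39 (0.0382), Cyp3a41a (0.0107) and Cyp3a44 (0.00123) of the other 7 were called higher and none lower. In that fit 24.2% of all 21049 genes were higher and 6.39% lower, and Cyp2b9 did not pass. The Cyp3a41a call rested on 1 recovered read in each alcohol library and none in the control libraries. That of Cyp2b13 rested on 4 to 12 reads per alcohol library and 1 read in all the controls. Of the 2 members listed as higher in males, Cyp2d9 was lower and Cyp2u1 did not pass. Outside these families, 12 of 15 tested male-biased genes were lower with alcohol and none was higher, beside 13.0% and 44.2% of all tested genes. With median-of-ratios scaling 14 were lower and none higher (26.5% and 25.9% of all genes). As deposited, the median log2 change of these male-biased genes was -2.36, beside 0.24 over all genes. Among them Cyp4a12a, a fatty acid hydroxylase, stood at 30.7 ± 3.13 FPKM in alcohol samples and 164 ± 32.2 FPKM in control samples, and Hsd3b5, a steroid dehydrogenase, at 23.5 ± 7.83 FPKM in alcohol samples and 197 ± 29.4 FPKM in control samples (SD, n = 4 each). Nudt7, a peroxisomal hydrolase of coenzyme A, fell by 2.53 on the log2 scale and Cyp4a12b fell by 2.23. Of 16 listed female-biased genes outside these families 6 were tested, and 3 were higher and 2 lower, beside 44.2% and 13.0% of all tested genes. Atp6v0d2, 1 of those 3, had a control mean under 1 FPKM and passed the minimum only through the alcohol group.

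Of the redox partners and heme supply of the P450s, 5 of 17 tested genes were higher and 5 lower, beside 44.2% and 13.0% of all tested genes. With median-of-ratios scaling 4 were higher and 8 lower (25.9% and 26.5% of all genes). Por, the reductase that feeds electrons to every member, had 408, 284, 463 and 271 FPKM in alcohol replicates 1 to 4, against 233, 161, 205 and 149 FPKM in control replicates 1 to 4, with no overlap and a log2 change of 0.91 ± 0.20 (SE, limma adjusted p = 0.00315). Alas1, the first and limiting enzyme of heme synthesis in liver, had 87.2, 62.1, 107 and 61.7 FPKM in alcohol replicates 1 to 4, against 267, 228, 342 and 146 FPKM in control replicates 1 to 4. It was thus lower in every alcohol sample, by a log2 change of -1.59 ± 0.26 (SE, limma adjusted p = 0.000478). Alad, the next enzyme, stood at 18.5 ± 1.24 FPKM in alcohol samples and 33.6 ± 3.98 FPKM in control samples, and the heme-degrading Hmox1 at 82.1 ± 9.07 FPKM in alcohol samples and 4.76 ± 1.58 FPKM in control samples (SD, n = 4 each). Hmox2 and the cytochrome b5 reductase family member Cyb5r1 also rose, with log2 changes of 1.08 and 3.28.

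Of 31 tested receptors and factors that set P450 transcription, 15 were higher and 4 lower, with a median log2 change of 0.32. These shares are near the 44.2% and 13.0% of all tested genes. With median-of-ratios scaling 10 were higher and 7 lower (25.9% and 26.5% of all genes). Nr1i3, which encodes CAR, had 62.1, 92.4, 66.7 and 91.4 FPKM in alcohol replicates 1 to 4, against 39.7, 59.1, 41.4 and 46.7 FPKM in control replicates 1 to 4. No control reached the lowest alcohol sample, with a log2 change of 0.72 ± 0.17 (SE, limma adjusted p = 0.00397) that did not pass with median-of-ratios scaling (adjusted p = 0.0643). Nr1i2, which encodes PXR, stood at 35.9 ± 5.73 FPKM in alcohol samples and 32.9 ± 2.51 FPKM in control samples (SD, n = 4 each) and did not pass (log2 change 0.11 ± 0.13, limma adjusted p = 0.461). Ahr stood at 11.4 ± 3.94 FPKM in alcohol samples and 7.12 ± 2.22 FPKM in control samples (SD, n = 4 each), and its call (log2 change 0.60 ± 0.23, limma adjusted p = 0.0469) was lost in 9 of 18 alternatives (adjusted p up to 0.242), among them leaving out alcohol replicate 1 (0.119) or 3 (0.0735) or control replicate 3 (0.136) or 4 (0.108). The nuclear receptors Rora and Rxrb rose by log2 changes of 1.34 and 1.00, while the clock factor Dbp fell by 1.85 and the fatty acid receptor Ppara fell by 1.24 on that scale. Rora had a control mean under 1 FPKM and passed the minimum only through the alcohol group.

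Other targets of the same receptors were described beside the members. Of 26 tested targets of CAR and PXR that are not P450s, 20 were higher and none lower, beside 44.2% and 13.0% of all tested genes. Their median log2 change was 0.90, beside 0.24 over all genes. Ces2b of that list was too low to be tested, at 0.0174 FPKM on average in alcohol samples and 0.921 FPKM in control samples. When every gene was fitted, Ces2b was called lower (limma adjusted p = 0.00935). With median-of-ratios scaling 15 of the tested targets were higher and 1 lower (25.9% and 26.5% of all genes). The glutathione transferase Gstm3 stood at 301 ± 122.9 FPKM in alcohol samples and 16.2 ± 4.04 FPKM in control samples, and the exporter Abcc4 at 5.65 ± 1.63 FPKM in alcohol samples and 0.0704 ± 0.0129 FPKM in control samples (SD, n = 4 each). Gstm4 and the reductase Akr1b7 rose by log2 changes of 2.43 and 1.67. Among the targets called higher, Abcc4, Akr1b7, Gsta1 and Gadd45b had control means under 1 FPKM. They passed the minimum only through the alcohol group, so their direction is no support. Of 6 tested targets of the aryl hydrocarbon receptor outside the members, 3 were higher and none lower, where 44.2% of all tested genes were higher. Those 3 were Nqo1, Cd36 and Nfe2l2 (log2 changes 1.71, 1.86 and 1.04). Ahrr, the repressor of that receptor, and the dehydrogenase Aldh3a1 stayed at or below 0.0315 FPKM in every sample. Other factors also drive genes of both target lists, and what drove these changes was not tested.

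Cyp2e1, the ethanol-oxidizing P450 left out of the members, was lower with alcohol. It stood at 4227 ± 701 FPKM in alcohol samples and 6240 ± 753 FPKM in control samples (SD, n = 4 each), with a log2 change of -0.57 ± 0.17 (SE, limma adjusted p = 0.0153). It passed in 15 of 18 alternatives, with an adjusted p of 0.0026 to 0.607. Its mean level in alcohol samples was still above the mean of 3610.1 FPKM of Cyp2c29, the most abundant member, though alcohol replicates 2 and 4 held more Cyp2c29.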

How the data were processed

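Per the labels, the deposited values are FPKM made by the authors, 1 column per library for 21049 gene symbols. The submitters' processing notes name the builds GRCm38 and mm10, and no label states the aligner, counter, annotation or strand setting. Libraries are scaled to their totals, so a change in abundant transcripts moves all others. Library totals and gene lengths that turn FPKM into whole reads (tolerance 1e-06 of a read) were found for 21048 genes, which held at least 99.8% of each total. For genes with few reads these may be a fraction of the true reads.

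The test was a linear model in limma 3.58.1 (R 4.3.3), fitted to log2(FPKM + 1), which understates changes of low genes. It took genes whose 8-sample mean reached 1 FPKM, with a variance trend, 2-sided p-values and Benjamini-Hochberg adjustment over all 9228 at a threshold of 0.05. Sums over members were described and not tested. On simulated data the fit was checked before use.

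The members and gene lists were chosen with earlier results of these data known. By rule, each subfamily's most abundant member and its largest called changes are given sample by sample, with Cyp1a1, Cyp1a2, Cyp2b9, Cyp2b10, Cyp2b13, Cyp3a11, Cyp2f2 and Cyp2u1. From each list, save the sex-chromosome and cell type markers, up to 4 genes by smallest p are named, with Nr1i3, Nr1i2, Ahr, Por and Alas1. Cyp1b1, Cyp2a4, Cyp2a12, Cyp2c23, Cyp2c38, Cyp2c67, Cyp2c70, Cyp3a44 and the other members given by value were chosen after their values were seen. So were Alb, Clec4f, Ddx3y, Xist, Ces2b, Gsta1, Gadd45b, Hsd17b13, Cps1, Gldc, Ass1, Fbp1 and Hal.

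Positions and coding sequences are those of GENCODE M21 (GRCm38), where all 52 members were found by symbol, and the windows of 250 bases before gene starts from RefSeq on GRCm38.p6 for 45 of them. Motifs were searched on both strands. Shared windows are 50-base stretches, or 100-base where said, of a transcript that also occur in a transcript of another gene. Shares depend on that length: with 100 bases they were 6.36% for Cyp2a22 and 44.1% for Cyp2c40.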

Additional observations from a re-analysis of the deposited data

Results flagged for a closer look

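In each group of 4 samples, the highest or lowest sample was compared with its nearest neighbour, as the gap divided by the whole range, with Dixon's 95% critical value as the limit. Of 82 groups examined 7 passed it, and chance flags about 1 in 20. Alcohol replicate 1 stood apart upward for Cyp2b10 (0.851) and so for the 2b sum (0.877), and downward for Cyp3a25 (0.852), which had 160 FPKM there and 250 to 266 FPKM in the other alcohol samples. Alcohol replicate 3 stood apart upward for Cyp2c38 (0.981), Cyp2c68 (0.915) and Cyp2c69 (0.9). Among controls, replicate 1 stood apart downward for Cyp2a12 (0.94). Cyp2c68 had 126 FPKM in alcohol replicate 3 and 93.5 to 96.2 FPKM in the other alcohol samples. Without alcohol replicate 1 the log2 change of Cyp3a25 was 0.50, with a limma adjusted p of 0.00429, and without alcohol replicate 3 that of Cyp2c69 was -0.94, with an adjusted p of 0.0124. Cyp2c69 passed the minimum only through the control group, so that direction is no support.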

How the results depend on the processing

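Over 18 alternatives, 526 of 589 values of tested members kept their direction and their side of the threshold, 25 no longer passed, 23 newly passed and 15 changed sign. The counts of all genes moved with scaling: 2386 were higher and 2446 lower with median-of-ratios scaling, and 2270 higher and 2274 lower with quantile normalization. With a minimum mean of 5 FPKM fewer genes were tested and 1981 were higher. Members called lower numbered 10 with median-of-ratios scaling. That scaling also moved the log2 ratios of the sums, to 1.46 for 2a (1.77 as deposited), 1.30 for 2c (1.60), -0.52 for 2d (-0.21), -0.11 for 2j (0.19) and 0.55 for all members (0.85). The signs that turned, listed here for members and genes named by rule, were of genes that did not pass. With median-of-ratios scaling Cyp2d10 was at -0.23, Cyp2d22 at -0.0853, Cyp2j5 at -0.091, Cyp2u1 at -0.13 and Nr1i2 at -0.18. With quantile normalization Cyp2c68 was at 0.0143 and Cyp2u1 at -0.25, and on the TPM scale Cyp2c68 was at 0.0415 and Cyp2r1 at 0.13. Leaving out each replicate in turn gave -0.0638 to 0.19 for Cyp2d10, -0.053 to 0.0575 for Cyp2r1 and -0.0109 to 0.19 for Cyp2u1, and 13 to 16 members higher and 4 to 7 lower. The cause of these shifts was not tested. With a replicate block 17 members were higher and 7 lower (4307 and 1380 of all genes), but same-numbered samples shared only a number: the correlations of their deviations were 0.349, 0.216, 0.0706 and 0.28. The planned count model on recovered reads was not run, and limma-voom on those reads, chosen after seeing the data, called 15 members higher and 6 lower.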

Other observations

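Markers of the position of hepatocytes in the liver lobule moved in both directions. Of 12 tested genes of hepatocytes near the central vein, Cyp2e1 among them, 5 were higher with alcohol and 5 lower, where 44.2% and 13.0% of all tested genes were. With median-of-ratios scaling 3 were higher and 7 lower, where 25.9% and 26.5% of all genes were. Axin2, a target of Wnt signalling there, stood at 2.78 ± 0.296 FPKM in alcohol samples and 0.503 ± 0.102 FPKM in control samples (SD, n = 4 each), and the ammonium transporter Rhbg had a log2 change of 1.09. The control mean of Axin2 was under 1 FPKM, so it passed the minimum only through the alcohol group. Rgn, a calcium-binding lactonase, stood at 239 ± 16.8 FPKM in alcohol samples and 808 ± 98.0 FPKM in control samples (SD, n = 4 each), and the ornithine aminotransferase Oat fell by 0.75 on the log2 scale. Of 15 tested genes of hepatocytes near the portal vein, 6 were higher and 4 lower, beside the same 44.2% and 13.0%. With median-of-ratios scaling none was higher and 6 were lower (25.9% and 26.5% of all genes). Beside Hsd17b13, those called higher as deposited were Cps1, Gldc, Ass1, Fbp1 and Sdsl, with log2 changes of 0.72, 0.48, 0.46, 0.40 and 0.35. Hsd17b13 of that list, called higher (log2 change 0.30, limma adjusted p = 0.0484), stood at -0.000254 with that scaling. Pck1, the gene of the enzyme that commits carbon to glucose synthesis, stood at 381 ± 142 FPKM in alcohol samples and 1181 ± 154 FPKM in control samples (SD, n = 4 each), and the urea cycle enzyme Arg1 fell by 0.49. Etnppl and Hal, also called lower, had log2 changes of -0.99 and -0.53.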
